A study of Mus musculus with 2 samples.

Results

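A set of 10 genes that bring polyamines, arginine and methionine derivatives to the polyamine pathway were followed in muscle stem cells before and after injury. They are the 10 rows, of 32285 features in the deposited count matrices, whose symbols are Slc3a2, Slc7a1, Atp13a2, Atp13a3, Mat2a, Mat2b, Mtap, Ahcy, Arg1 and Arg2. They were chosen by name as transport and methionine supply genes, and each symbol matched 1 row. The study compared quiescent satellite cells (QSCs), the resting muscle stem cells of uninjured tibialis anterior muscle, with activated satellite cells (ASCs) sorted from the same muscle 1.5 days after cardiotoxin (CTX), a toxin that destroys muscle fibres. Mice of both groups were 8 weeks old and carried the alleles Pax7 CreERT2/+ and Rosa26 mTmG/+, a fluorescent reporter switched on by a tamoxifen-dependent recombinase in cells that express Pax7. Each group was 1 droplet-based single-cell library from a pool of mice, so that group and library cannot be told apart, no difference below has a replicate check, and no p-value is given.

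Polyamines are small positively charged molecules made from ornithine, to which aminopropyl groups are added to make spermidine and spermine. The aminopropyl groups come from S-adenosylmethionine, and the by-product, methylthioadenosine, is salvaged back to methionine. Ornithine is made from arginine by arginases, and cells can also take up finished polyamines or move them out of lysosomes. Activated muscle stem cells are known for growth and division, and polyamines are needed for both in most cells.

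The QSC library held 766 barcodes, of which 516 passed the limits of at least 500 genes and at most 10% mitochondrial transcripts, and the ASC library held 1650, of which 1468 passed. A barcode marks the transcripts of 1 droplet, and a unique molecular identifier (UMI) marks 1 captured transcript. The kept barcodes summed to 1162091 UMIs in QSC and 8895815 UMIs in ASC, with medians of 2155 and 3502 UMIs per barcode. Levels are given as UMIs of a gene per 1000000 UMIs (CPM) with exact Poisson 95% intervals, and ratios as log2 of ASC over QSC with exact conditional 95% intervals; both cover counting error only. Because each UMI counts a molecule tagged at its 3' end, CPM was compared between genes without division by length. A count of 0 was taken to allow up to 3 UMIs, which is 2.58 CPM in QSC and 0.337 CPM in ASC.

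Both sorted libraries also held barcodes rich in transcripts of muscle fibres. Barcodes were called fibre-rich when at least 5% of their UMIs came from 10 fibre genes, and the others were called fibre-poor unless they lay in clusters named as other cell types. This gave 370 fibre-poor, 104 fibre-rich and 42 other-type barcodes in QSC, and 412, 941 and 115 in ASC. Summed levels of 10 quiescence markers, Pax7 among them, were 4184 CPM in fibre-poor QSC barcodes and 830.3 CPM in fibre-poor ASC barcodes, against 83.9 and 80.3 CPM in fibre-rich ones. Markers of activated cells, Myod1 and Myog among them, summed to 353 CPM in fibre-poor QSC barcodes (2 of 10 at 0) and 2309 CPM in fibre-poor ASC barcodes (0 at 0). In fibre-rich barcodes they summed to 117 CPM in QSC (8 at 0) and 443 CPM in ASC (0 at 0). Fibre-poor barcodes were much deeper in ASC, with a median of 8445 UMIs against 2222 in QSC. In them, 8 fibroblast markers summed to 4161 CPM in QSC and 1018 CPM in ASC with 0 and 1 markers at 0, and 10 macrophage markers to 54.3 and 116 CPM with 5 and 0 at 0. Red cell markers summed to 131 and 1691 CPM, and pericyte or smooth muscle markers to 376 and 1262 CPM. The part of these cell types and of depth in the ratios below was not tested. Only 2 kept barcodes occurred in both libraries. In these sums, fewer cells of a type and less RNA per cell cannot be told apart.

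The sequence before the start of Mat2a is shown because Mat2a had the most UMIs of the 10 genes and the narrowest ratio interval. It is the 250 bases before the RefSeq start, on the minus strand of GRCm38.p6 at chr6:72439557-72439806, printed 5′ to 3′ with GC boxes (GGGCGG on either strand) in capitals.
Mat2a: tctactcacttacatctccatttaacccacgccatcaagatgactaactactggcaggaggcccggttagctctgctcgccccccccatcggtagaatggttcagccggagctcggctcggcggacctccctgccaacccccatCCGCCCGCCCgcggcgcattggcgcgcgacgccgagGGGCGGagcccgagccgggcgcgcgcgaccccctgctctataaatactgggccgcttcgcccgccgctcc
The window had a GC content of 67.6% and held 3 GC boxes, which began 106, 102 and 70 bases before the start, the first pair overlapping. Windows of the same length held at least 1 GC box in 32.7% of 32851 promoters. The letters CACGTG (an E-box, in 6.02% of promoters), TGATGNAA (the core of an amino acid response element, in 3.45%) and TGANTCA (an AP-1 site, in 6.75%) were not found in the window on either strand.

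Mat2a and Slc3a2 were the most abundant of the 10 genes in both libraries, and Mtap differed most between them. Of the 9 genes with at least 20 UMIs over both libraries, Mtap and Slc7a1 were at least 2-fold higher in ASC, Mat2a and Atp13a2 were at least 2-fold lower, and Slc3a2, Atp13a3, Mat2b and Ahcy were within 2-fold. Arg2, with 0 UMIs in QSC, had no measured ratio. Arg1 fell under the limit with 19 UMIs. Among all 11189 genes with at least 20 UMIs, 16.0% were at least 2-fold higher and 23.0% at least 2-fold lower, so 2 of 9 in each direction was close to the share of all genes. With trimmed mean (TMM) scaling these shares became 23.3% and 16.9%, and relative to the median gene 21.5% and 18.2%. Atp13a2 was within 2-fold under both. The median log2 ratio was -0.31 over the 8 genes with a UMI in each library, -0.06 when Arg2 was set to the level of 3 UMIs in QSC, and -0.10 over all genes tested. For 5730 genes with at least 20 UMIs in each library the median was -0.24. Relative to that median gene, the log2 ratio of Mat2a was -1.30, that of Slc3a2 -0.72, that of Atp13a2 -0.83 and that of Mtap 4.78.

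**Figure D1:**
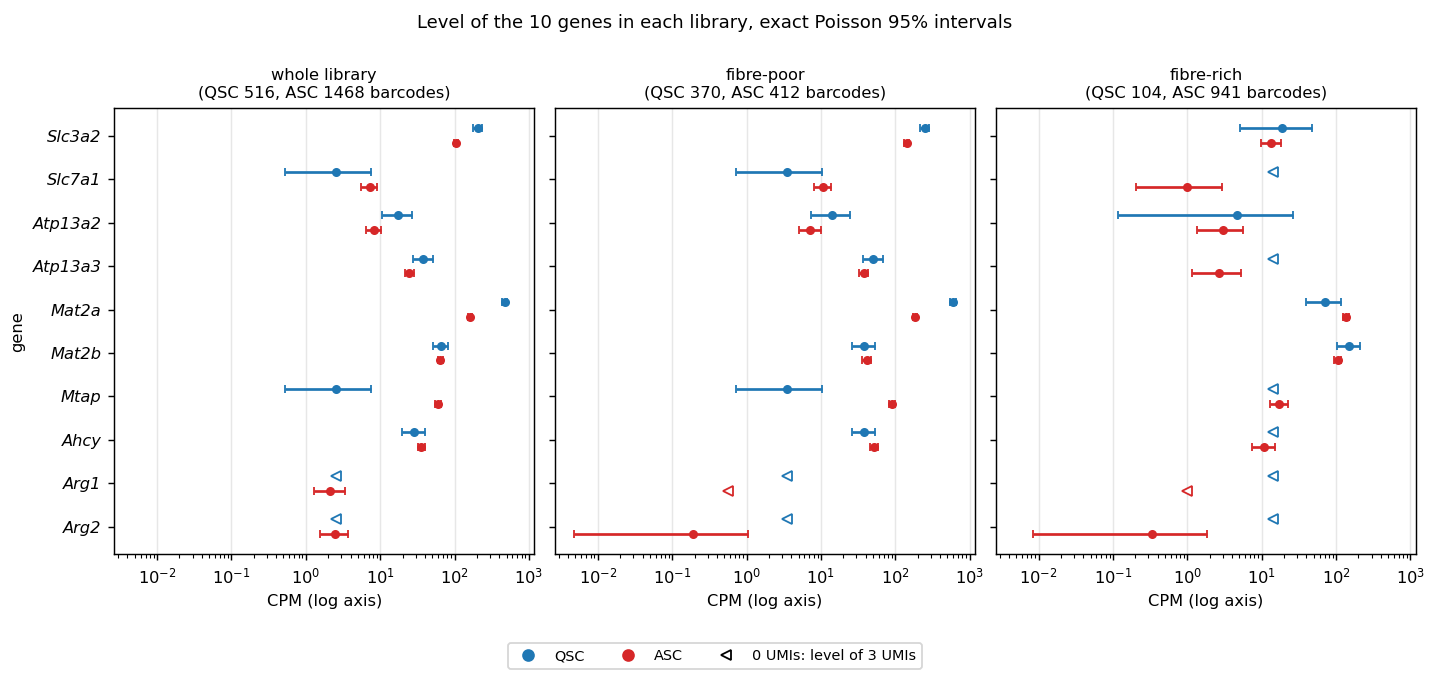
Level of each of the 10 genes (CPM, log axis) in QSC (blue) and ASC (red), for whole libraries, fibre-poor and fibre-rich barcodes, 1 library per group. Bars are exact Poisson 95% intervals and open triangles mark the level of 3 UMIs where a gene had 0. Mat2a was at 471 CPM in QSC and 162 CPM in ASC over whole libraries, while Mtap was at 2.58 and 60.1 CPM.

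Of the transport genes, Slc3a2 was the most abundant. Slc3a2 (chr19:8706882-8723369, minus strand, GENCODE M21 on GRCm38) encodes the CD98 heavy chain, which brings several amino acid exchangers to the cell surface and has been linked to polyamine uptake. It had 238 UMIs in QSC, or 205 CPM (interval 179.6 to 233), and 936 UMIs in ASC, or 105 CPM (98.6 to 112). The QSC level was 1.95-fold higher, and the log2 ratio was -0.96 (-1.17 to -0.75), just inside the 2-fold limit. It passed that limit when each cell was weighted alike (-1.54), after thinning (-1.36) and without the deepest 5% of barcodes (-1.18). It lay further inside the limit with TMM scaling (-0.65) and relative to the median gene (-0.72), and turned to 0.96 with at most 1% mitochondrial UMIs. Fibre-poor barcodes carried most of the Slc3a2 UMIs, 211 in QSC and 744 in ASC. Their levels were 249 and 142 CPM, with a log2 ratio of -0.82 (-1.04 to -0.59). In fibre-rich barcodes Slc3a2 was much lower in both libraries, at 18.6 CPM (4 UMIs) in QSC and 13.5 CPM (41 UMIs) in ASC, and the ratio there was not resolved.

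Depth alters the share of cells in which Slc3a2 was seen. Before thinning, 39.7% of fibre-poor QSC barcodes and 62.4% of fibre-poor ASC barcodes had a UMI. After each barcode was thinned to 1200 UMIs, which left out 4 and 5 shallower barcodes, the shares were 23.0% (84 of 366, exact binomial interval 18.7 to 27.6) and 15.7% (64 of 407, 12.3 to 19.6). At equal depth the order of the shares was that of the CPM.

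Atp13a3 and Atp13a2 are related membrane pumps with different sites of action. Atp13a3 (chr16:30312423-30405975, minus strand) is linked to uptake of polyamines into the cell, and Atp13a2 (chr4:140986873-141007330, plus strand) exports them from lysosomes into the cytosol. Atp13a3 had 44 UMIs in QSC (37.9 CPM, 27.5 to 50.8) and 220 in ASC (24.7 CPM, 21.6 to 28.2), a log2 ratio of -0.61 (-1.09 to -0.11). Nearly all lay in fibre-poor barcodes, 43 and 198, where the interval of the log2 ratio, -0.91 to 0.08, included 0. Atp13a2 had 20 UMIs in QSC (17.2 CPM) and 73 in ASC (8.21 CPM), a log2 ratio of -1.07 (-1.80 to -0.28). In fibre-poor barcodes it was -0.97 (-1.94 to 0.10), so the difference was not detectable there at this depth. Other cell types gave 7 of the 20 QSC UMIs of Atp13a2 and 26 of the 73 ASC UMIs.

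Slc7a1 was near the limit of detection in QSC. It encodes CAT-1, the main carrier of arginine and other cationic amino acids in many cells (chr5:148327410-148399904, minus strand). It had 3 UMIs in 3 QSC barcodes (2.58 CPM, 0.532 to 7.54) and 64 UMIs in 54 ASC barcodes (7.19 CPM, 5.54 to 9.19). The log2 ratio of 1.48 had an interval of -0.13 to 3.79, so that equal levels were within counting error. In fibre-poor barcodes it had 3 UMIs in QSC and 56 in ASC, and the log2 ratio was 1.59 (-0.03 to 3.91). The ratio fell inside 2-fold without the deepest 5% of barcodes (0.83) and with each cell weighted alike (0.62). After thinning to 1200 UMIs, 2 of 488 QSC barcodes (0.410%, 0.0497 to 1.47) and 4 of 1371 ASC barcodes (0.292%, 0.0796 to 0.745) had a UMI. In thinned fibre-poor barcodes the shares were 0.546% in QSC and 0.737% in ASC. The direction was thus not resolved at equal depth. Only 3 UMIs of Slc7a1 lay in fibre-rich ASC barcodes and 0 in fibre-rich QSC barcodes.

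Mat2a was the gene with the clearest lower level in ASC. Mat2a (chr6:72432799-72439558, minus strand) encodes the catalytic subunit of the methionine adenosyltransferase that makes S-adenosylmethionine in most tissues outside the liver. It had 547 UMIs in QSC (471 CPM, 432 to 512) and 1444 UMIs in ASC (162 CPM, 154 to 171). The QSC level was 2.90-fold higher, a log2 ratio of -1.54 (-1.68 to -1.39). In fibre-poor barcodes it was 598 CPM (547 to 652) against 182 CPM (171 to 194), a 3.28-fold difference and a log2 ratio of -1.71 (-1.87 to -1.56). After thinning to 1200 UMIs, 43.2% of fibre-poor QSC barcodes (38.0 to 48.4) and 19.9% of fibre-poor ASC barcodes (16.1 to 24.1) had a Mat2a UMI. Before thinning the deeper ASC barcodes had the larger share, 69.2% against 61.6%.

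The direction turned in fibre-rich barcodes. There Mat2a was at 69.9 CPM (15 UMIs, 39.1 to 115) in QSC and 135 CPM (410 UMIs, 123 to 149) in ASC, a log2 ratio of 0.95 (0.21 to 1.80), just inside 2-fold. The shares of thinned fibre-rich barcodes with a UMI were 6.67% (6 of 90, 2.49 to 13.9) and 15.6% (133 of 854, 13.2 to 18.2). The turn depended on where the fibre limit was set. With a limit of 10% of UMIs the log2 ratio was 0.89, but with 2% it was -0.71. Of the 67 QSC barcodes added by the lower limit, 40 belonged to the main QSC cluster, which had the highest level of Mat2a. At the stricter mitochondrial limit of 1% that the study used, the whole-library ratio also turned, to 1.26, and that of Slc3a2 to 0.96. That limit left 86 QSC barcodes, of which 85 were fibre-rich, and 948 ASC barcodes, of which 871 were.

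Mat2b, the regulatory partner of Mat2a, did not follow it. Mat2b (chr11:40679314-40695203, minus strand) encodes the subunit that modulates the activity of the catalytic one. It had 76 UMIs in QSC (65.4 CPM, 51.5 to 81.9) and 576 in ASC (64.8 CPM, 59.6 to 70.3), a log2 ratio of -0.01 (-0.36 to 0.35). It was higher in fibre-rich barcodes, at 149 CPM in QSC and 106 CPM in ASC, than in fibre-poor ones, at 37.8 and 41.1 CPM. The intervals of these levels did not overlap between the barcode classes within either library. Since both genes were counted in the same cells, their ratio does not depend on scaling. Fibre-poor barcodes held 15.8 Mat2a UMIs for each Mat2b UMI in QSC and 4.43 in ASC. Mat2a was 94.1% of the UMIs of the pair in QSC (506 and 32 UMIs, exact binomial interval 91.7 to 95.9) and 81.6% in ASC (957 and 216 UMIs, 79.2 to 83.8). In fibre-rich barcodes the share was 31.9% (19.1 to 47.1) in QSC and 56.1% (52.4 to 59.7) in ASC, so it went the other way.

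**Figure D2:**
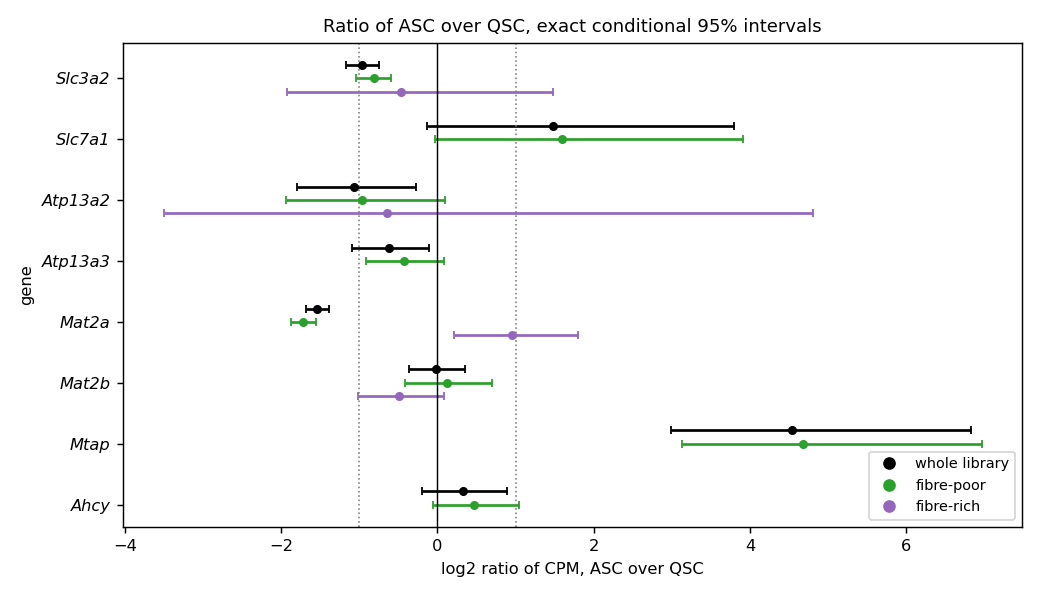
Log2 ratio of CPM, ASC over QSC, of 8 genes in whole libraries (black), fibre-poor (green) and fibre-rich barcodes (purple), with exact conditional 95% intervals and dotted lines at 2-fold; 1 library per group, and genes with 0 UMIs in either library are not drawn. Mat2a lay at -1.71 in fibre-poor and at 0.95 in fibre-rich barcodes, and Mtap at 4.68 in fibre-poor ones.

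Mtap showed the largest difference. It encodes methylthioadenosine phosphorylase, the first enzyme of methionine salvage, which clears the by-product of spermidine and spermine synthesis (chr4:89137122-89181081, plus strand). It had 3 UMIs in QSC, 1 in each of 3 barcodes (2.58 CPM, 0.532 to 7.54), and 535 UMIs in 191 ASC barcodes (60.1 CPM, 55.2 to 65.5). The log2 ratio was 4.54 with an interval of 2.99 to 6.82, or 23.3-fold as measured. Without the deepest 5% of barcodes it was 3.21, and after thinning 2.97. All 3 QSC UMIs lay in fibre-poor barcodes, at 3.54 CPM (0.731 to 10.4), and 478 of the ASC UMIs did, at 90.9 CPM (83.0 to 99.5). The difference was also there at equal depth, since 1 of 366 thinned QSC barcodes (0.273%, 0.00692 to 1.51) and 25 of 407 thinned ASC barcodes (6.14%, 4.01 to 8.93) had a Mtap UMI. In fibre-rich barcodes Mtap had 0 UMIs in QSC and 52 in ASC (17.2 CPM). The lower limit of the log2 ratio was -0.05, so that equal levels were within counting error. In the macrophage/monocyte-like ASC cluster 4 of 85 barcodes had a Mtap UMI (7.34 CPM).

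Ahcy was at similar levels in both libraries. Its enzyme hydrolyses S-adenosylhomocysteine, the product left when S-adenosylmethionine gives up a methyl group (chr2:155059310-155074497, minus strand). It had 33 UMIs in QSC (28.4 CPM, 19.5 to 39.9) and 317 in ASC (35.6 CPM, 31.8 to 39.8). The log2 ratio was 0.33 (-0.19 to 0.89), and with each cell weighted alike it was -0.40. The count is uncertain because another counted gene, Gm4737, shares 275 identical bases with the end of an Ahcy transcript. That copy had 18 UMIs in QSC and 167 in ASC, and both genes together gave a log2 ratio of 0.31 (-0.11 to 0.76) over whole libraries and 0.50 (0.07 to 0.96) in fibre-poor barcodes. An antisense gene, Gm45609, also overlaps Ahcy and was counted.

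Of the genes in fibre-poor barcodes, Mtap and Slc7a1 were at least 2-fold higher, Mat2a was at least 2-fold lower and 5 of 8 tested genes were within 2-fold. Over all 9954 genes tested in these barcodes, 18.6% were at least 2-fold higher and 22.5% at least 2-fold lower. In fibre-rich barcodes 5 genes had at least 20 UMIs. Of these, Slc3a2, Mat2a and Mat2b were within 2-fold, and Mtap and Ahcy, with 0 UMIs in QSC, had no measured ratio. Over all 6402 genes tested in fibre-rich barcodes, 18.6% counted as higher and 10.7% as lower. In these shares a count of 0 was set to the level that 0 UMIs allow, 13.99 CPM in fibre-rich QSC barcodes. A gene seen only in ASC could therefore count as lower. The shares thus include genes without a measured ratio and are not a like comparison for the genes named here.

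The arginases were found in immune-like barcodes. Arg1 (chr10:24915221-24927484, minus strand), the cytosolic arginase, and Arg2 (chr12:79130777-79156301, plus strand), the mitochondrial one, split arginine into urea and ornithine. Arg1 had 0 UMIs in QSC and 19 in ASC, or 2.14 CPM, which is below the 2.58 CPM that 0 UMIs allow in QSC, so the libraries could not be separated. The 250 QSC barcodes that did not pass the limits held 2 further Arg1 UMIs, and the 182 such ASC barcodes held 1. All 19 UMIs lay in 9 of the 85 ASC barcodes of the macrophage/monocyte-like cluster (10.6%, 4.96 to 19.2), and 12 of them in 3 barcodes. In 412 fibre-poor ASC barcodes Arg1 had 0 UMIs, which allows up to 0.571 CPM. Arg2 had 0 UMIs in QSC and 22 in ASC (2.47 CPM), again under the QSC limit. Of its 22 UMIs, 15 came from 12 macrophage/monocyte-like barcodes (14.1%) and 5 from 5 of 24 neutrophil-like barcodes (20.8%, 7.13 to 42.2), with 1 UMI each in a fibre-like cluster and cluster 5. Only 2 barcodes had both arginases. The end of Arg2 shares 285 bases with a transcript of Vti1b, which lies on the other strand, so that its count is uncertain without a stated handling of strand.

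Clustering of all kept barcodes on 1078 variable genes gave 13 clusters. Before it, 6 genes of the related lists below were left out of the variable genes, 0 of them among the 10. Genes of the marker lists used to name clusters were not left out. Of the cluster and library combinations, 12 had at least 20 barcodes. Cluster 3 held 243 QSC and 8 ASC barcodes and was led by Fosb, Chodl and Egr1. Cluster 5, led by the proliferation genes Rrm2, Cdc20 and Birc5, held 71 QSC and 146 ASC barcodes. Cluster 2, led by Bgn and Ifit1, held 246 ASC barcodes, with Pax7 at 62.5 CPM in them. Cluster 9 held 46 ASC barcodes with Myog at 6535 CPM and 0 Pax7 UMIs. Its label, activated satellite cell-like, came from Mymk and Myog among its leading genes, and the absence of Pax7 goes against it. Clusters 1 and 8 were fibre-like, cluster 6 was led by slow-fibre genes such as Tnni1, and clusters 0 and 4 were led by Mybph and by Hbb-bs and Mt3.

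Mat2a was highest in QSC cluster 3, at 657 CPM, and in the QSC barcodes of cluster 5, at 466 CPM. It was lowest in the fibre-like QSC cluster 8, at 71.6 CPM (39.2 to 120.2), an interval that overlapped those of several ASC clusters. Among ASC clusters it was highest in cluster 2, at 246 CPM, and it lay between 92.0 and 155 CPM in the other 8. Slc3a2 was at 263 CPM in QSC cluster 3 and at 257 CPM in the ASC macrophage/monocyte-like cluster, whose intervals overlapped. It followed at 217 CPM in QSC cluster 5, 173 CPM in ASC cluster 2 and 123 CPM in ASC cluster 5, and lay between 8.62 and 20.5 CPM in ASC clusters 0, 1 and 6 and QSC cluster 8, all rich in fibre transcripts. Mat2b ran the other way, with its highest levels of 148, 135 and 123 CPM in QSC cluster 8, ASC cluster 6 and ASC cluster 1, and intervals that overlapped. Mtap was highest in ASC cluster 5, at 138 CPM from 378 UMIs, followed by 41.7 CPM in ASC cluster 2 and 33.3 CPM in ASC cluster 4. Atp13a3 and Ahcy were highest in the Myog-high ASC cluster 9, at 82.6 and 72.7 CPM, and Atp13a2 in the macrophage/monocyte-like ASC cluster, at 47.7 CPM. For each of these genes the interval overlapped that of QSC cluster 5, so the ranking was not resolved.

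**Figure D3:**
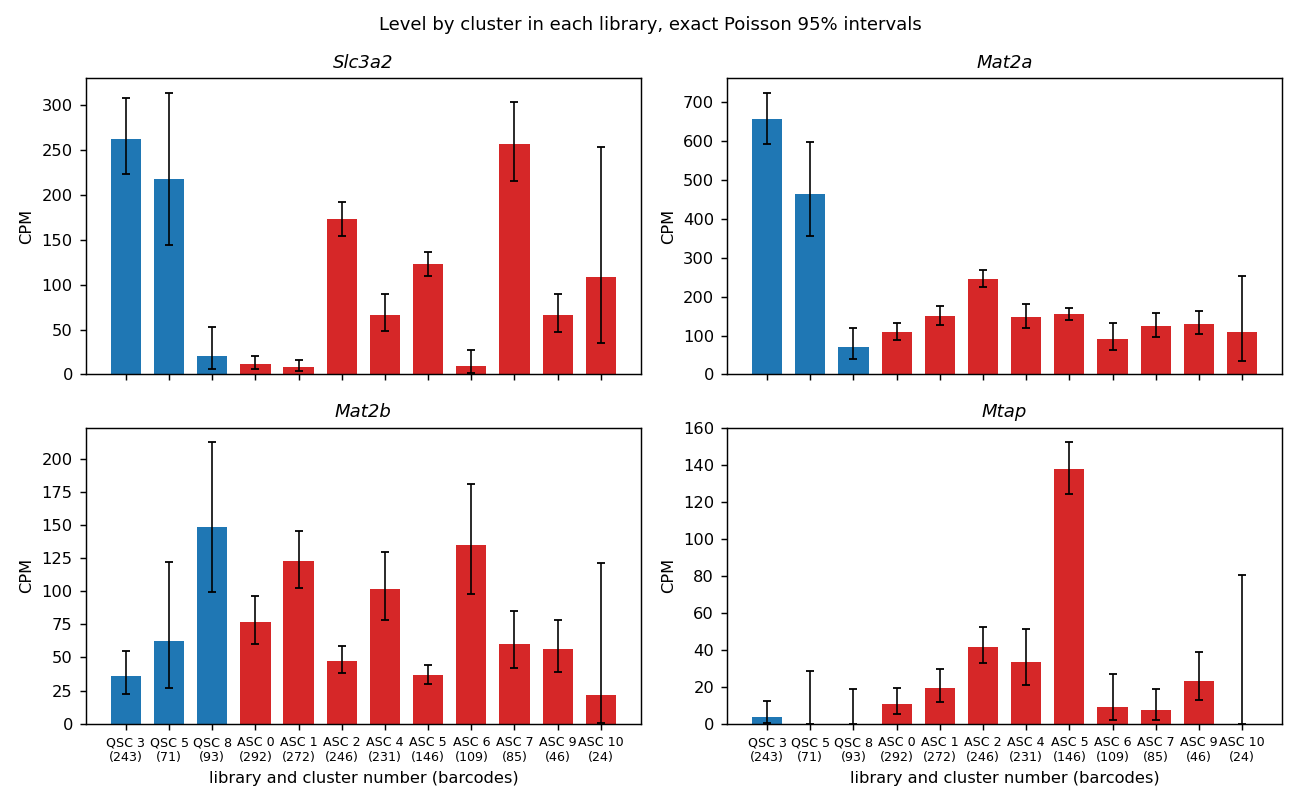
Level (CPM, linear axes from 0) of Slc3a2, Mat2a, Mat2b and Mtap in each combination of library and cluster with at least 20 barcodes, whose number is in brackets; QSC is blue, ASC red, and bars show exact Poisson 95% intervals. Mat2a was highest in QSC cluster 3 at 657 CPM, Mtap in ASC cluster 5 at 138 CPM, and Mat2b in QSC cluster 8 at 148 CPM.

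Cluster 5 was the single cluster with at least 20 barcodes of each library. Within it Mat2a had a log2 ratio of -1.59 (-1.98 to -1.18) and Slc3a2 of -0.83 (-1.38 to -0.21), beside -1.71 and -0.82 in all fibre-poor barcodes. Mtap had 0 UMIs in the QSC barcodes and 378 in the ASC barcodes, at least 5.92-fold higher against the level of 3 UMIs. The ASC barcodes of this cluster were far deeper, with a median of 18451 UMIs against 1756. Their mean share of fibre UMIs was 5.76% against 2.27% in QSC, so the cluster was not limited to fibre-poor barcodes. The barcodes of the libraries also differed in markers: Pax7 was at 186 CPM in QSC and 10.9 CPM in ASC, and Mki67, a marker of dividing cells, had 0 UMIs in QSC and was at 32.8 CPM in ASC.

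The QSC library was rich in early-response transcripts, which many stimuli induce within minutes. The share of 10 such genes, Fos, Jun and Egr1 among them, had a median of 2.96% in fibre-poor QSC barcodes and 0.310% in fibre-poor ASC barcodes. Fibre-poor barcodes were therefore divided at the median share of their own library into a low-share and a high-share group. In the low-share group Mat2a was at 670 CPM in QSC and 161 CPM in ASC, a log2 ratio of -2.06 (-2.26 to -1.85), and in the high-share group at 524 and 232 CPM, a log2 ratio of -1.18 (-1.42 to -0.93). Mat2a was thus lower in ASC in both groups. Between the groups it was lower with the higher share in QSC and higher with the higher share in ASC. The groups were not matched between libraries, with median shares of 2.04% in the low-share QSC group and 0.857% in the high-share ASC group, and the part of early-response transcripts in the ratio was not tested. Within a library the groups were not matched for depth or cluster, and the part of these in the differences between groups was not tested. Mtap was at 0 and 117 CPM in the low-share group and at 7.18 and 30.0 CPM in the high-share group, where the log2 ratio was 2.06 (0.43 to 4.39). For Atp13a3 the log2 ratio was -0.97 (-1.58 to -0.31) in the low-share group and 0.40 (-0.39 to 1.27) in the high-share group. Outside cluster 3 the log2 ratio of Mat2a in fibre-poor barcodes was -1.35 and that of Atp13a2 -0.06.

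**Figure D4:**
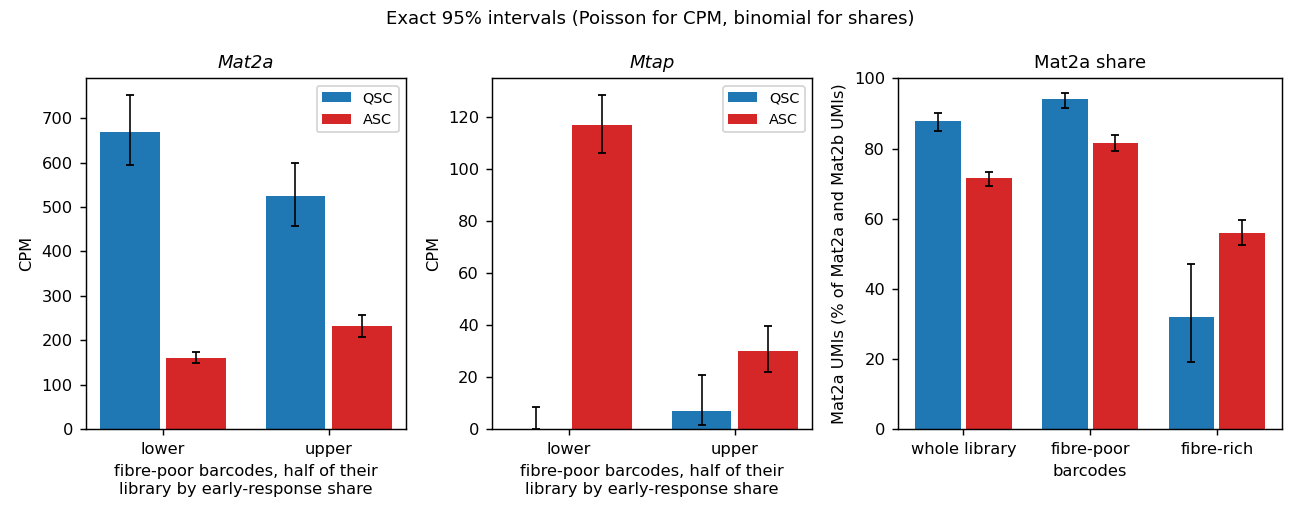
Left and centre, CPM of Mat2a and Mtap in fibre-poor QSC (blue) and ASC (red) barcodes with an early-response share below or above the median of their library, with exact Poisson 95% intervals; right, Mat2a UMIs as a percentage of Mat2a and Mat2b UMIs in each barcode class, with exact binomial 95% intervals. Mat2a was higher in QSC in both, at 670 against 161 CPM and 524 against 232 CPM, and its share of the pair was 94.1% against 81.6% in fibre-poor but 31.9% against 56.1% in fibre-rich barcodes.

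For the 4 genes with at least 500 UMIs, the genes with the most similar level over the 12 cluster and library combinations were listed. These points share libraries, depth and free RNA, so the Pearson correlations of log2(CPM + 1) are descriptions. Nearest to Slc3a2 were Ctsl (r = 0.975), Hspa5 (0.970) and Notch2 (0.956). Nearest to Mat2a were Errfi1 (0.913), Gm42418 (0.896) and Jun (0.887). Mat2b lay nearest to Cox16 (0.945), Scp2 (0.940) and Cox6c (0.938), and Mtap to Tomm20 (0.955), Rps20 (0.952) and Polr2h (0.943). Mat2a and Mat2b had a correlation of -0.41 and Mat2a and Slc3a2 of 0.63.

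Among the light chains that pair with Slc3a2 to form exchangers, 5 of 6 genes had at least 20 UMIs, 1 higher and 2 lower by 2-fold, against 16.0% and 23.0% of all genes. Slc7a8 had 67 UMIs in QSC (57.7 CPM) and 40 in ASC (4.50 CPM), a log2 ratio of -3.68 (-4.28 to -3.09), and 54 of its QSC UMIs lay in cluster 3. Slc7a5, the large neutral amino acid carrier, had 25 and 34 UMIs (21.5 and 3.82 CPM), a log2 ratio of -2.49 (-3.28 to -1.69). Slc7a11, the cystine carrier, had 0 and 167 UMIs and was at least 7.27-fold higher in ASC. Of those 167, 80 came from the 24 neutrophil-like barcodes and 59 from the macrophage/monocyte-like ones, and in fibre-poor barcodes it had 28 UMIs. Slc7a6 had a log2 ratio of -0.10 (-1.18 to 1.18). Of 12 other carriers of cationic amino acids or polyamines, 4 had at least 20 UMIs. Of them Slc7a2 was lower (log2 ratio -1.13, -2.08 to -0.07), Slc47a1 was higher on 2 and 35 UMIs (1.19, -0.77 to 4.29), and Slc18b1 and Atp13a1 were within 2-fold.

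Of the 5 genes that follow Mtap in methionine salvage, Enoph1 was higher in ASC and 4 were within 2-fold, with a list median of 0.52. Enoph1 had 5 and 213 UMIs (4.30 and 23.9 CPM), a log2 ratio of 2.48 (1.23 to 4.11), and like Mtap it was highest in ASC cluster 5, at 43.8 CPM. Mri1 had a log2 ratio of 0.97 (0.40 to 1.60), Got1 of 0.52 (0.25 to 0.80), Adi1 of 0.51 (-0.26 to 1.38) and Apip of -0.05 (-0.54 to 0.48). Of 9 other methionine cycle genes with at least 20 UMIs, 0 were higher and 4 lower, against 16.0% and 23.0% of all genes, with a list median of -0.35. The lower ones were Cbs (-2.68), Nnmt (-1.63), Ahcyl2 (-1.55) and Ahcyl1 (-1.28), the latter pair being relatives of Ahcy, while Gamt (0.75) and Mettl16 (0.12) were within 2-fold. In fibre-poor barcodes 3 of 8 were lower, against 22.5% of all genes, and 1, Gamt, was higher (1.03, 0.56 to 1.54), against 18.6%, while Nnmt was at -0.68 (-1.83 to 0.65). Mat1a, the liver counterpart of Mat2a, had 0 UMIs in both libraries.

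In arginine and ornithine metabolism 7 of 12 genes had at least 20 UMIs, with 2 higher, 1 lower (16.0% and 23.0% of all genes) and a list median of 0.73. Oat, which interconverts ornithine and glutamate semialdehyde, was at 170.4 CPM in QSC and 73.5 CPM in ASC, and its log2 ratio was -1.21 (-1.44 to -0.98). Ass1, which makes arginine's precursor, was at 28.4 and 61.4 CPM (1.11, 0.60 to 1.67). In ASC it was highest in the macrophage/monocyte-like cluster, at 146.7 CPM, and in fibre-poor barcodes it was at 37.8 and 86.6 CPM. Aldh18a1 was the other higher gene (1.27, -0.01 to 2.92), on 5 and 92 UMIs, while Gatm (0.52) and Asl (-0.29) were within 2-fold. Otc had 0 UMIs in both libraries.

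**Figure D5:**
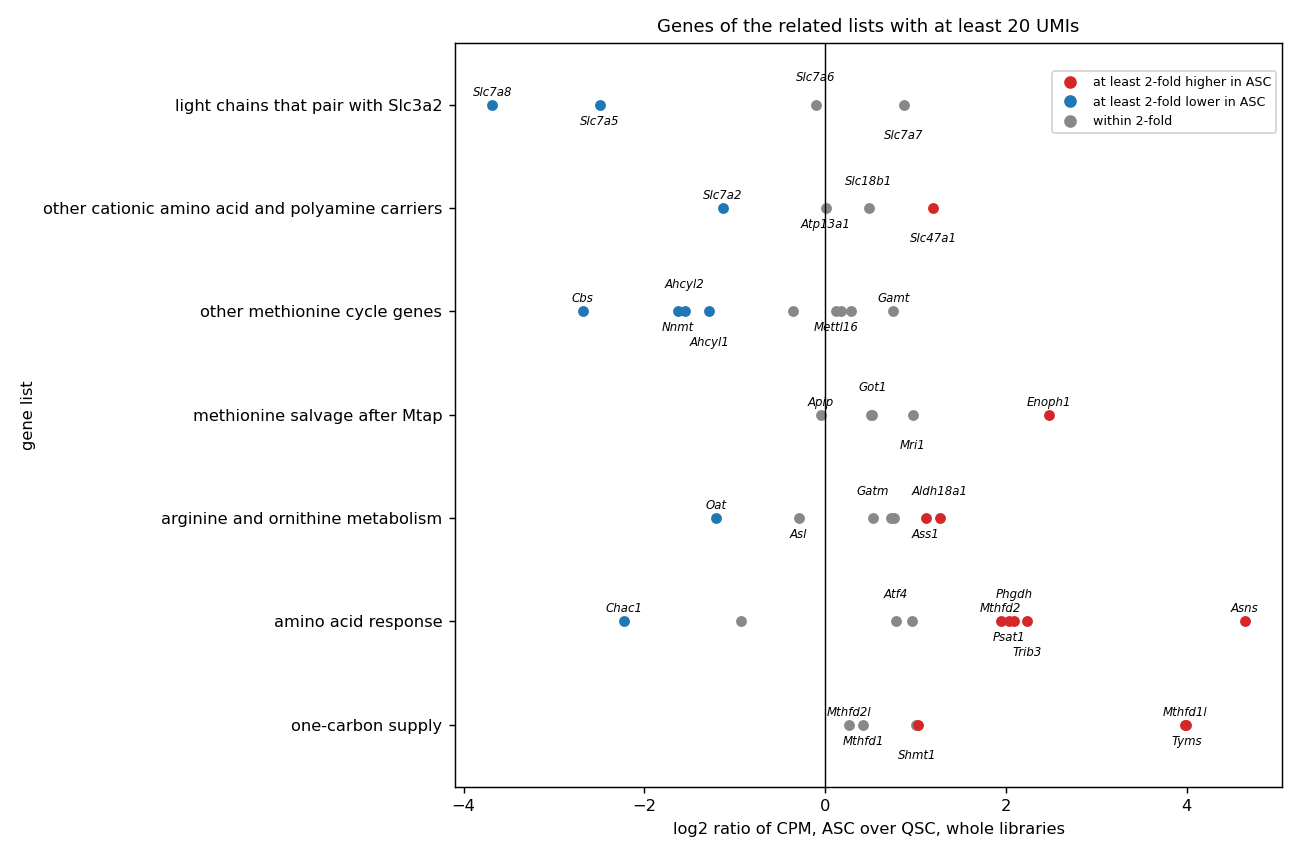
Log2 ratio of CPM, ASC over QSC, in whole libraries for genes of 7 related lists with at least 20 UMIs and a UMI in each library; red points are at least 2-fold higher in ASC, blue points at least 2-fold lower and grey points within 2-fold. Slc7a11, with 0 UMIs in QSC, is not drawn. Cbs lay at -2.68, Enoph1 at 2.48 and Asns at 4.64.

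Genes of the amino acid response, which cells switch on when amino acids run short, were higher for 5 of 9 and lower for 1, against 16.0% and 23.0% of all genes, with a list median of 1.94. Asns had 1 UMI in QSC and 191 in ASC (4.64, 2.15 to 9.95), and 135 of the 191 lay in cluster 5. Phgdh (2.09, 1.61 to 2.61), Psat1 (2.04, 1.46 to 2.67) and Mthfd2 (1.94, 1.38 to 2.56), which make serine and one-carbon units, were also higher. Trib3 had 1 and 36 UMIs and a ratio whose interval included 0 (2.23, -0.34 to 7.58), and Chac1 was lower (-2.23, -3.03 to -1.39). Atf4, the factor that drives this response, had a log2 ratio of 0.78 (0.57 to 0.996). Shmt2 (0.96) and Sesn2 (-0.94) were also within 2-fold. In fibre-poor barcodes 5 of 8 genes of this list were higher and 2 lower, against 18.6% and 22.5% of all genes. In one-carbon supply, over whole libraries, 3 of 6 genes were higher and 0 lower, against 16.0% and 23.0% of all genes, with a list median of 1.01. The higher ones were Tyms (3.99), Mthfd1l (3.98) and Shmt1 (1.02), while Mthfd1 (0.42) and Mthfd2l (0.26) were within 2-fold. Of 12 polyamine enzymes and their control genes, 4 were higher, 3 lower (16.0% and 23.0% of all genes) and 5 within 2-fold, with a list median of -0.07. The higher ones were Odc1 (2.18), Srm (1.82) and Sms (1.27), the ornithine decarboxylase and the spermidine and spermine synthases, and Paox. Paox, a polyamine oxidase, had 2 and 53 UMIs and an interval that included 0 (1.79, -0.13 to 4.87). Oaz1 (-0.05) and Oaz2 (-0.56), inhibitors of the decarboxylase, were within 2-fold, as were Amd1 (-0.08), Smox (-0.12) and Azin1 (0.41). The acetyltransferase gene Sat1 was lower over whole libraries (-1.12) and in fibre-poor barcodes (-1.98, -2.22 to -1.74) but higher in fibre-rich ones on 4 and 219 UMIs (1.96, 0.58 to 3.84).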

How the data were processed

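Single-cell 3' RNA-seq was done on 1 QSC and 1 ASC library. Per the file headers, the deposited counts, whole UMI numbers per gene and barcode, were made by the authors with Cell Ranger 6.0.2; the processing notes name Cell Ranger 7.1.0, Seurat 4.1.0, R 4.1.2 and mm10. Annotation and strand handling were not given in the sources used here. Dissociation is described for hind-limb muscles and the labels name the tibialis anterior. Genes were placed with GENCODE M21 (99.6% of identifiers matched).

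Barcodes with at least 500 genes and at most 10% mitochondrial UMIs were kept. UMIs were summed per library or class and divided by the total; intervals (95%) were exact and cover counting error only. A gene was called at 2-fold or more with at least 20 UMIs over both libraries. Seurat 5.3.0 in R 4.3.3 clustered the barcodes (10 components, resolution 0.6, regressing UMI number and mitochondrial share). Clusters were named from fixed markers, by a naming rule written after the data were seen. No doublets were removed; leaving out the deepest 5% of barcodes was an alternative. TMM factors came from edgeR 4.0.16, and near-identical transcripts from blastn 2.17.0 on the last 500 bases. The ratio script was tested on simulated data.

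The genes, lists and tests were chosen with earlier results of these data known. Named genes are the 10, per list up to 4 with the highest CPM and any past 2-fold with at least 100 UMIs, and the 3 most similar genes; further list genes were named after their values were seen, to complete a count. The early-response genes and the settings built on them, on cluster 3 and on shared barcodes were also chosen after seeing the data. Ddit3 had 2 rows and was left out of its list. Another 2 genes of the related lists are not reported here, and their lists were counted without them.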

Additional observations from a re-analysis of the deposited data

Results flagged for a closer look

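The log2 ratio of Mat2a, ASC over QSC, was -1.71 in fibre-poor barcodes and 0.95 in fibre-rich ones, so the same contrast had opposite directions in the classes, with intervals of -1.87 to -1.56 and 0.21 to 1.80. With 1 library per group the difference was not tested. Only Slc3a2, Atp13a2, Mat2a and Mat2b had a UMI in each library in both classes. Of these, Mat2a alone had intervals on opposite sides of 0. The others of the 10 genes had 0 UMIs in fibre-rich QSC barcodes and could not be judged. The fibre-rich value rests on 15 UMIs in 104 QSC barcodes and became -0.71 when the limit on fibre UMIs was 2% in place of 5%.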

How the results depend on the processing

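No paired analysis was possible because each group had 1 library, and for the same reason no replicate could be left out. Mtap stayed higher in ASC in all 15 settings that gave a ratio, from 2.06 (high early-response share) to 5.63 (at most 5% mitochondrial UMIs), and Slc7a1 in 15 of 15, from 0.62 to 1.79. The share of thinned barcodes with a Slc7a1 UMI was not higher in ASC over whole libraries, at 0.410% in QSC and 0.292% in ASC. Mat2a stayed lower in 16 of 18, the exceptions being 1.26 with at most 1% mitochondrial UMIs and 0.96 in barcodes with at least 5% fibre UMIs. Slc3a2 stayed lower in 17 of 18, from -1.54 with each cell weighted alike to 0.96 with at most 1% mitochondrial UMIs. Atp13a2 stayed lower in 18 of 18, from -1.74 to -0.06. The number of genes at least 2-fold higher, 2 as reported, was 1 with at most 5% mitochondrial UMIs, with each cell weighted alike, after thinning to 1200 UMIs, without the deepest 5% of barcodes and in barcodes of high early-response share, and 0 in fibre-rich barcodes. The number at least 2-fold lower, 2 as reported, was 0 with at most 1% mitochondrial UMIs and in fibre-rich barcodes, 1 with at least 200 genes, with TMM scaling, relative to the median gene, in fibre-poor barcodes, outside cluster 3 and in barcodes of low or high early-response share, 3 with at least 1000 genes, without the deepest 5% of barcodes and without other cell types, and 4 with each cell weighted alike, after thinning and at a 1.5-fold threshold. Of the 10 genes, 5 were tested in each setting with 0 lower, 6 with high early-response share, 7 after thinning and 8 to 10 elsewhere. Counts of 0 lower stood beside 15% and 10.4% of all genes, and counts of 1 beside 14.9% to 24.2%. Counts of 3 lower stood beside 22.3% to 24.4%, and counts of 4 beside 28.9%, 24% and 34% in the order given. Counts of 1 higher stood beside 14.3% to 16.5%, and that of 0 beside 18.8%. Apart from a limit of at least 1 UMI, the share of all genes lay between 14.3% and 26.3% higher and between 10.4% and 34% lower. With that limit the shares were 10.9% and 43.5%. A count of 0 was set to 3 UMIs in these shares. At that limit a gene seen only in ASC could therefore count as lower in ASC. Over all settings, 137 other values of single genes moved by less than their counting interval and 60 by more. These values include shares of cells with a UMI at other depths, which depend on depth by design. The subsets also held fewer barcodes, and the cause of the other moves was not tested. Slc7a1, Mtap and the arginases had at most 3 UMIs each in the kept QSC barcodes, so their QSC levels were imprecise. The part of depth in these low counts was not tested.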
